A study of Homo sapiens with 6 samples.

Results

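The replication-dependent histone genes supply the proteins that package DNA as it is copied. They were taken as every row of the deposited expression table whose symbol starts with HIST1H, HIST2H, HIST3H or HIST4H, the older names of these genes, which gave 74 members of 25545 genes. Of the members, 71 are protein-coding and 3 are pseudogenes, and all 74 were matched to a RefSeq gene of GRCh38.p14, with 56 on chromosome 6, 17 on chromosome 1 and 1 on chromosome 12. The study silenced NEAT1, the long noncoding RNA that nucleates paraspeckles, in BT-549 cells, a widely used cell line of mesenchymal character derived from a triple-negative breast cancer (TNBC). RNA-seq was performed on 3 libraries of BT-549/CsiRNA cells, which received a control siRNA, and 3 libraries of BT-549/NEAT1siRNA cells, which received an siRNA against NEAT1. All were collected 48 h after transfection from cells grown in triplicate, and the sample titles also carry "tet", which the labels do not explain. The comparison asks whether histone gene expression differed after NEAT1 silencing in this line, and 1 cell line was sampled at 1 time.

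Core histones H2A, H2B, H3 and H4 form the octamer around which DNA is wrapped, and the linker histone H1 binds the DNA between octamers. Their replication-dependent genes lie in clusters, lack introns, are transcribed mainly in S phase and end in a conserved stem-loop instead of a poly(A) tail. The stem-loop is bound by SLBP, and the U7 snRNP directs the cut that forms the end, whereas NPAT activates transcription of the clusters at histone locus bodies.

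Levels were deposited as TPM, in which the reads of a gene are divided by a transcript length and scaled to the same total in every library. Reads per gene were recovered by joining the TPM table with the mean normalized counts that were also deposited, and they summed to between 15774047 and 20354540 per library. With replicates in order, NEAT1 had 13.4, 7.68 and 10.8 TPM after CsiRNA and 4.36, 2.96 and 2.73 TPM after NEAT1siRNA, with no overlap and with a log2 fold change of -1.41 (SE 0.14, limma adjusted p = 1.21e-07). The mesenchymal markers of the line were present, with VIM at 859 to 1112 TPM and CDH2 at 76.0 to 113 TPM, and ESR1 was at 0 in all 6 libraries. A group of 4 short noncoding RNAs took 64.4% to 68.1% of the TPM of a library but 2.19% to 3.06% of its recovered reads. The TPM of every histone gene therefore also depends on them. Chi-square per degree of freedom, which is near 1 for libraries that differ by sampling alone, was 4.58 to 14.7 between replicates of a group and 13.2 to 30.2 between groups.

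Histone transcripts were abundant in the BT-549 libraries. The members together took 0.433%, 0.453% and 0.407% of the recovered reads in CsiRNA replicates 1, 2 and 3, and 0.440%, 0.395% and 0.438% in NEAT1siRNA replicates 1, 2 and 3. The groups overlapped, and the lowest share was in NEAT1siRNA replicate 2. As summed TPM, members gave 17031, 16817 and 14133 with CsiRNA and 15614, 15504 and 14731 with NEAT1siRNA, again with overlap, and here CsiRNA replicate 3 was lowest. The labels name a stranded mRNA kit, a kind that selects RNA by its poly(A) tail, and how far such selection acted was not measured here. Under selection, the levels and fold changes would be those of histone transcripts that had a tail or were carried over, not of all histone mRNA.

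Of the 74 members, 65 were above 0 in at least 1 library and 58 had a mean TPM of at least 1 and were tested. Means of 10 TPM or more were found for 52 of those, and the other 6, between 1 and 10 TPM, were HIST1H1A, HIST1H2AD, HIST1H2BE, HIST2H2BC, HIST1H4I and HIST1H4L. The 7 members detected below a mean of 1 TPM were HIST1H1T, the testis-specific linker histone, with HIST1H2AA, HIST1H2APS1, HIST2H2BA, HIST2H3PS2, HIST1H4F and HIST1H4G. The remaining 9 were listed at 0 in every library. Among these, HIST2H2AA3 and HIST2H2AA4, HIST2H3A and HIST2H3C, and HIST2H4A and HIST2H4B are near-identical copies on chromosome 1, and none of their 50-base windows occurs only 1 time in the genome. A value of 0 there does not show that these 6 genes were silent, since a read within them has more than 1 place to align. HIST1H3E, HIST1H2BA (a testis-specific H2B) and HIST3H3 (a testis-specific H3) were also listed at 0, although 100% of their windows are unique.

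**Figure D1:**
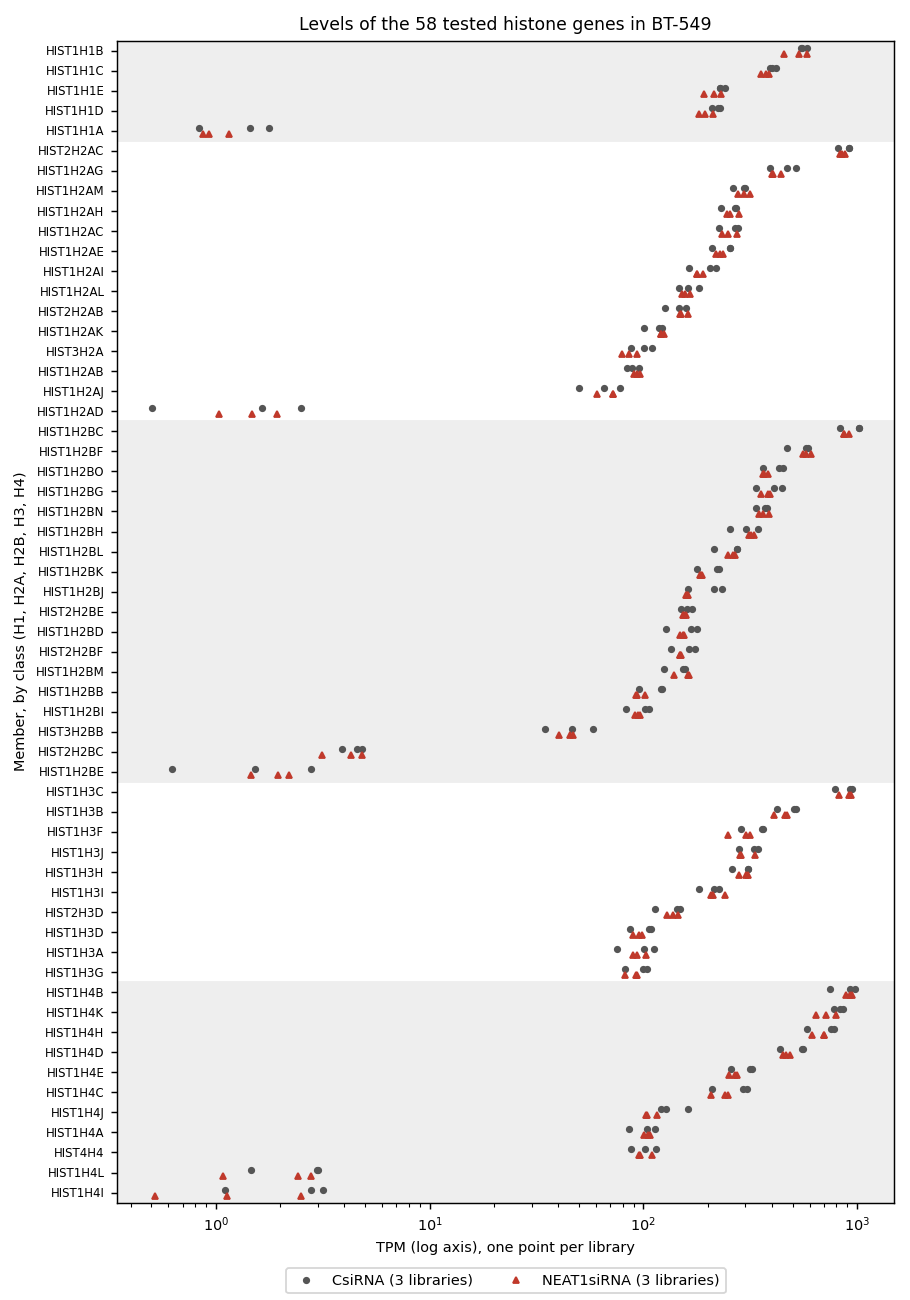
TPM of the 58 tested histone genes on a log axis, by class and mean level, with circles for the 3 CsiRNA libraries and triangles for the 3 NEAT1siRNA libraries. Members spread from about 1 to near 1000 TPM, and within nearly every row the triangles lie inside or beside the range of the circles (2 of 58 rows do not overlap).

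The level of a histone gene in TPM depends strongly on the length by which its reads were divided. For members with 1 annotated transcript, the length implied by TPM and reads was a median of 308 bases shorter than the transcript. This subtraction weighs most on H4 genes, whose canonical transcripts are 387 to 412 bases long and whose implied lengths were 69.0 to 129 bases, against 461 to 521 bases for H1 genes. By mean TPM the leading members of the 5 classes were HIST1H2BC at 921, HIST1H4B at 901, HIST1H3C at 890, HIST2H2AC at 868 and HIST1H1B at 543. As RPKM on the canonical transcript (recovered reads per kb, scaled to library depth), HIST1H1B led these 5 genes with 438, followed by HIST1H3C with 400, HIST1H2BC with 384 and HIST2H2AC with 335, and HIST1H4B had 206. The order of the classes therefore changed with the length used, and HIST1H1B moved from last to first among these 5 genes.

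HIST1H1B encodes the linker histone H1.5 (chr6:27866792-27867588, minus strand). Its 797-base transcript gathered 6342 reads per library on average. HIST2H2BE, an H2B gene (chr1:149884459-149886682, minus strand), gathered 7078 reads, but its canonical transcript of 2224 bases runs 1729 bases beyond the stem-loop, and its level was 158 TPM. The implied length exceeded the canonical transcript in 4 tested members, HIST2H2BF with 809 against 492 bases, HIST1H3D with 657 against 503, HIST1H2BK with 622 against 495 and HIST1H2BD with 595 against 486. For these 4 genes the deposited values were therefore scaled with transcripts longer than the canonical transcript. GENCODE v44 lists a longer transcript of 999 bases for HIST2H2BF and 789 bases for HIST1H2BD, and the RefSeq span of HIST1H3D (chr6:26196784-26199293) contains all 510 bases of HIST1H2AD on the same strand. Reads over those bases could be counted for either gene, and HIST1H2AD had a mean of 1.51 TPM.

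**Figure D2:**
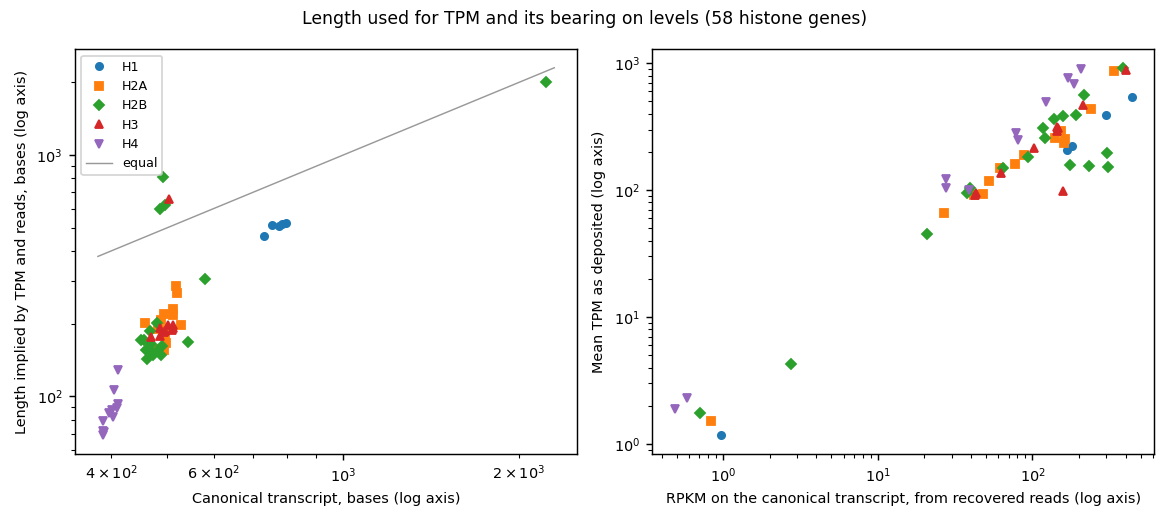
Left, length implied by the deposited TPM and the recovered reads against the canonical transcript length (bases, log axes) for 58 tested members, with the line of equality. Right, mean TPM against RPKM on the canonical transcript from recovered reads (log axes). H4 genes lie farthest below the line (69.0 to 129 bases) and highest in TPM for their reads, and 4 members (3 H2B genes and HIST1H3D) lie above the line.

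The stem-loop that ends these mRNAs was found in 72 of 74 members and in all 58 tested members, and in 70 it lay within 20 bases of the end of the canonical transcript. The exceptions without it were the pseudogenes HIST2H2BA and HIST1H2APS1. It is shown for the leading gene of each class for the 2 members called between groups, and for HIST1H4K, whose sequence is largely shared with HIST1H4J, in the DNA letters of the GENCODE v44 transcripts. Capitals mark the 16 bases of the stem-loop, which has a 6-base stem and a 4-base loop.
HIST1H1B: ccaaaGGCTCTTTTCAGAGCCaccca
HIST2H2AC: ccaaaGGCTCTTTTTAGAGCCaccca
HIST1H2BC: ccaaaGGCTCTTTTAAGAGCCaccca
HIST1H3C: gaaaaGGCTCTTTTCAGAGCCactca
HIST1H4B: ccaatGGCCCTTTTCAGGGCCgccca
HIST1H2BJ: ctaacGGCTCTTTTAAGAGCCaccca
HIST1H4J: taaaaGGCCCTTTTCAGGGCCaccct
HIST1H4K: caaaaGGCCCTTTTTAGGGCCccca

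All 15 H4 members with a stem-loop began it with GGCCC, and 0 of the 57 members of the other classes did. HIST1H2BJ and HIST1H2BC carry the same 16 bases, as do HIST1H4J and HIST1H4B. Whether the genes of these pairs differed in their change between groups was not tested, and neither was any part of the stem-loop in it.

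The comparison of BT-549/NEAT1siRNA with BT-549/CsiRNA cells found few histone genes past the threshold. In limma's moderated test on log2(TPM + 1), with p-values adjusted over 10721 genes, 2 of the 58 tested members were lower with NEAT1siRNA and 0 were higher, or 3.45%, whereas 14.0% of all genes tested were called (4.99% higher and 8.98% lower). At an unadjusted p under 0.05, 7 of the 58 members were lower and 0 were higher, against 18.2% of all genes lower and 9.22% higher. The median log2 fold change was -0.06 over the members tested and -0.04 over all genes tested, with 38 members below 0 and 20 above it. This balance depended on the scaling of the libraries. With each library centred on its median, the members had a median of -0.01, with 30 below 0, and it was 0.02, with 26 below 0, once each library's dependence on GC content and gene length was taken out. In that last setting 3 members (HIST1H2AB, HIST2H2AB and HIST1H2BF) were higher and 1 (HIST1H4J) was lower, where 33.3% of all genes were called. On TPM, the groups did not overlap for 2 members, HIST1H4J and HIST1H1C, both lower, or 3.45% of members. In that direction it was 19.3% of all genes. With voom on recovered reads, another test of the same libraries, 1 member (HIST1H2BJ, lower) was called, and 23.3% of all genes were. For 50 of the 52 members with a mean of 10 TPM or more, the 95% confidence interval of the log2 fold change stayed within 0.5 in either direction, which is a 1.41-fold difference, so that larger changes lay outside the interval for these genes. Standard errors for these 52 ran from 0.08 to 0.12. In bulk RNA, fewer cells in S phase and less histone mRNA per cell cannot be told apart.

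**Figure D3:**
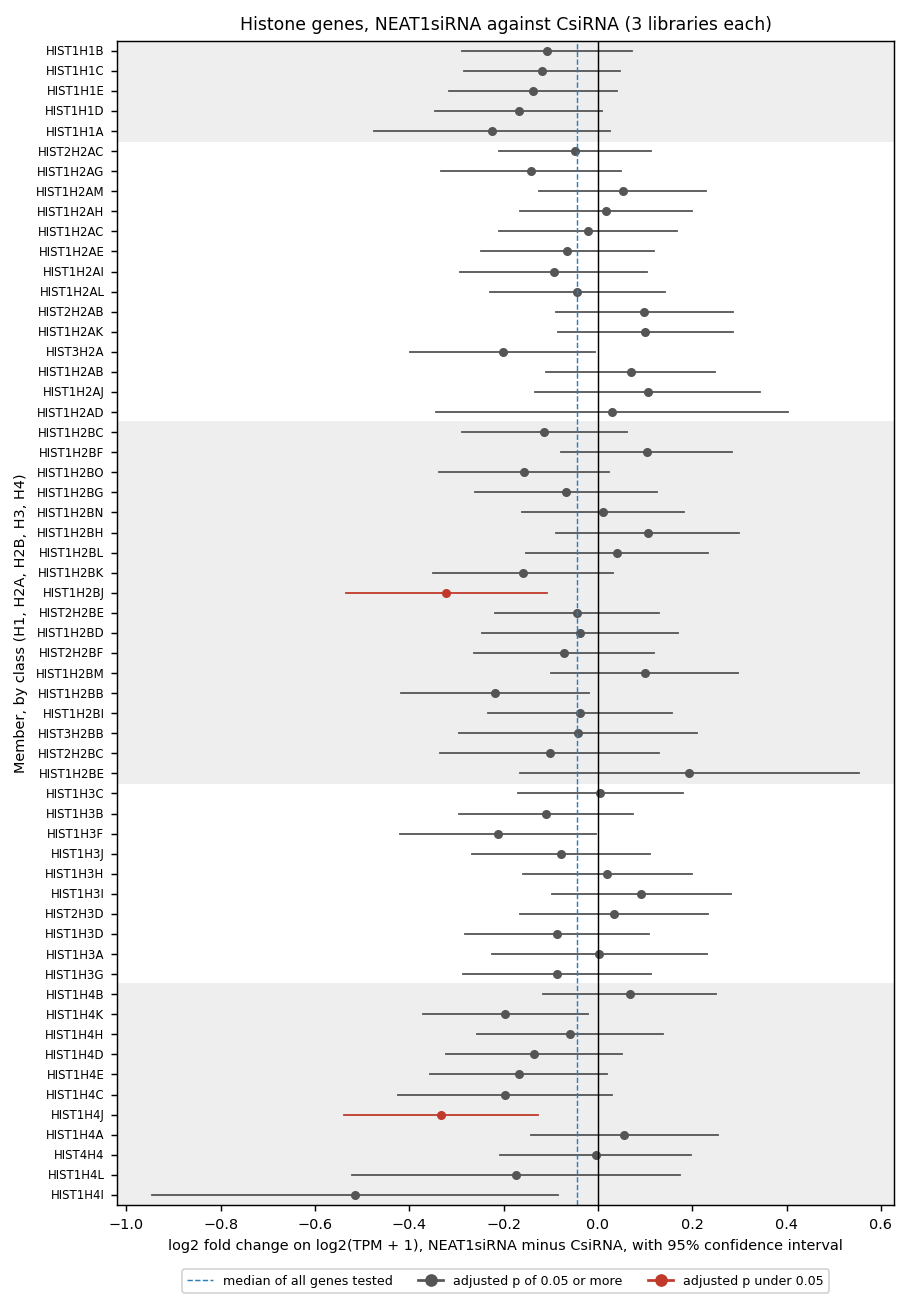
Log2 fold change of each tested member, NEAT1siRNA minus CsiRNA, on the log2(TPM + 1) scale (points) with its 95% confidence interval (lines), by class. HIST1H2BJ and HIST1H4J, in red, have an adjusted p under 0.05, and the dashed line is the median of all genes tested (-0.04).

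HIST1H2BJ encodes an H2B protein and lies at chr6:27132316-27132795 on the minus strand. It had 233, 215 and 161 TPM with CsiRNA and 158, 162 and 161 TPM with NEAT1siRNA, with replicates in order here and below. CsiRNA replicates 1 and 2 were high, whereas CsiRNA replicate 3 lay among the NEAT1siRNA libraries, so the groups overlapped. The mean was 203 ± 37.2 TPM with CsiRNA and 160.3 ± 2.004 TPM with NEAT1siRNA (SD, n = 3 each). The log2 fold change was -0.32 (SE 0.10, limma adjusted p = 0.0381).

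HIST1H4J, an H4 gene at chr6:27824092-27824480 on the plus strand, had 162, 128 and 121 TPM with CsiRNA and 116, 103 and 104 TPM with NEAT1siRNA. The groups did not overlap, although CsiRNA replicate 3 and NEAT1siRNA replicate 1 were close. The log2 fold change was -0.33 (SE 0.10, limma adjusted p = 0.0273), on a mean of 194.5 reads per library. This gene is uncertain, since 313 of its 340 windows of 50 bases, or 92.1%, are shared with HIST1H4K (chr6:27831174-27831560, minus strand), another H4 gene. HIST1H4K had 855, 829 and 781 TPM with CsiRNA and 798, 714 and 645 TPM with NEAT1siRNA, with overlap, and a log2 fold change of -0.20 (SE 0.08, limma adjusted p = 0.128). Summed over both genes, TPM were 1017, 957 and 902 with CsiRNA and 915, 818 and 749 with NEAT1siRNA. The sums overlapped between CsiRNA replicate 3 and NEAT1siRNA replicate 1.

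**Figure D4:**
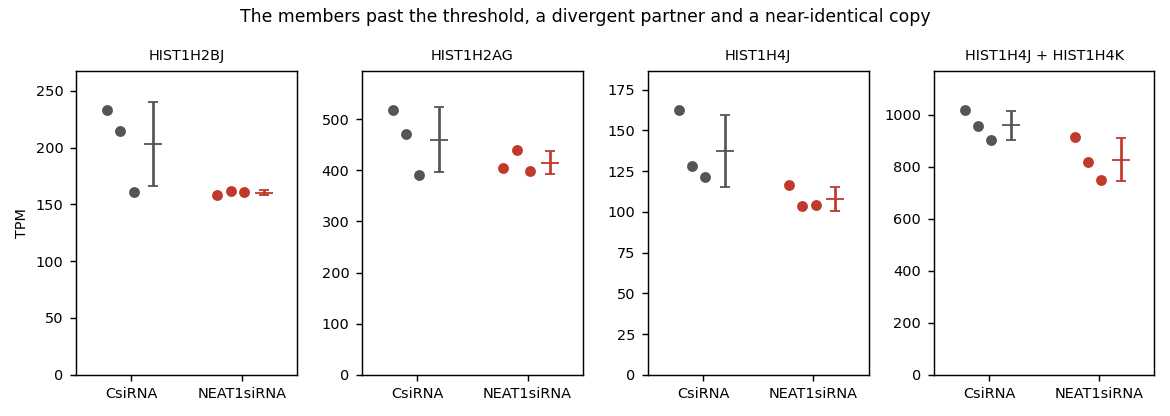
TPM in each library (points, in replicate order) with mean and SD to the right of them, for HIST1H2BJ, its divergent partner HIST1H2AG, HIST1H4J, and the sum of HIST1H4J with HIST1H4K, for 3 CsiRNA and 3 NEAT1siRNA libraries. CsiRNA replicate 3 of HIST1H2BJ (161 TPM) sits at the level of the NEAT1siRNA libraries, and the summed H4 values overlap between groups.

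These calls depended on single libraries. Without CsiRNA replicate 3, 14 members were lower and 0 were higher, or 24.1% of members, against 9.32% of all genes lower. HIST1H2BJ was then at -0.48 and HIST1H4J at -0.41, and the other members called were HIST1H4C, HIST1H4D, HIST1H4E, HIST1H4K, HIST1H4L, HIST1H3F, HIST1H2BB, HIST1H2BC, HIST1H2BK, HIST1H2BO, HIST1H2AG and HIST3H2A. Of these, HIST1H4L rests on a mean of 4 reads per library. Without CsiRNA replicate 1 no member was called (7.34% of all genes), and likewise without NEAT1siRNA replicate 3 (7.75% of all genes). Leaving out CsiRNA replicate 2 gave 3 lower and 1 higher (12% of all genes called). The lower members were HIST1H4I, HIST1H1A and HIST1H4J, and the higher was HIST1H2BE. Of these, HIST1H4I, HIST1H1A and HIST1H2BE averaged only 3.67, 13.5 and 6 reads per library. Leaving out NEAT1siRNA replicate 2 gave 6 lower (14.8% of all genes), among them HIST1H4I. The count of lower members thus ran from 0 to 14 with the library left out.

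CsiRNA replicate 3 stood apart in the core histone genes. The 52 members with a mean of 10 TPM or more were 48 core and 4 H1 genes. Of these 52, 37 had their lowest value of all 6 libraries in CsiRNA replicate 3. In 50 of the 52 the value was lower there than in both other CsiRNA libraries, against 59.0% of all genes tested. On log2 CPM of recovered reads, where the median of all genes was level between libraries, it was 46 of 52, against 37.4% of all genes. Relative to the CsiRNA mean, the 48 core histone members had a median of 0.12, 0.08 and -0.20 in CsiRNA replicates 1, 2 and 3 on the log2(TPM + 1) scale. In NEAT1siRNA replicates 1, 2 and 3 the median was -0.04, -0.00 and -0.08. The 3 NEAT1siRNA libraries thus lay between the CsiRNA libraries. All genes tested had a median of -0.06 in CsiRNA replicate 3, and the 42 tested S-phase genes, such as MCM and RFC genes, had -0.09. On log2 CPM the values in CsiRNA replicate 3 were -0.14 for core histone members, -0.00 for all genes and -0.03 for S-phase genes, so the gap was wider for core histone genes than for the S-phase list. The difference between these lists was not tested, and neither was the part of the cell cycle in it.

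**Figure D5:**
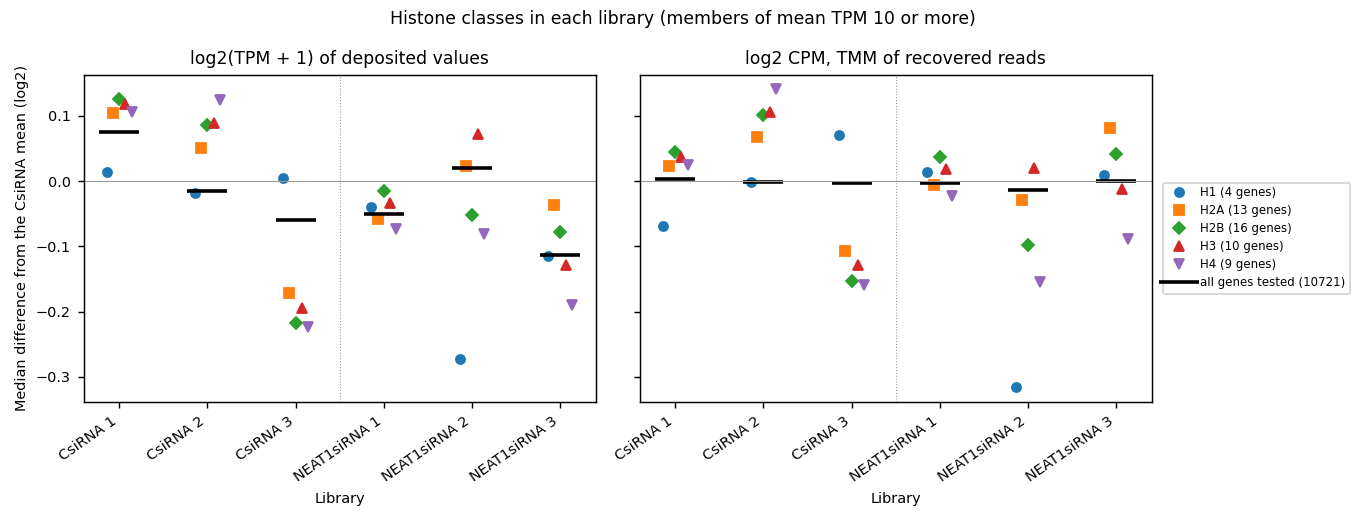
Median difference of each histone class from the CsiRNA mean in each library (log2), for members of mean TPM 10 or more, on log2(TPM + 1) of the deposited values (left) and log2 CPM of recovered reads (right), with black bars for all genes tested. The core classes lie lowest in CsiRNA replicate 3 on the left (-0.17 to -0.22), and H1 lies lowest in NEAT1siRNA replicate 2 on both scales.

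The H1 genes varied otherwise than the core genes. HIST1H1B had 551, 549 and 586 TPM with CsiRNA and 580, 457 and 533 TPM with NEAT1siRNA. HIST1H1C, which encodes H1.2, had 418, 401 and 393 TPM with CsiRNA and 386, 356 and 374 TPM with NEAT1siRNA. HIST1H1E, which encodes H1.4, had 229, 229 and 241 TPM with CsiRNA and 230, 192 and 215 TPM with NEAT1siRNA. In each of these genes NEAT1siRNA replicate 2 was lowest, and CsiRNA replicate 3 was not low beside the other CsiRNA libraries in HIST1H1B and HIST1H1E. HIST1H1D, which encodes H1.3, had 229, 223 and 208 TPM with CsiRNA and 211, 182 and 194 TPM with NEAT1siRNA. The log2 fold changes of the 5 tested H1 genes were all below 0, from -0.11 for HIST1H1B to -0.22 for HIST1H1A. HIST1H1A averaged only 13.5 reads per library. Of the 5 genes, 0 passed the test, also at an unadjusted p under 0.05 and by voom. The fold changes stayed below 0 with median centring, with voom and with the GC content and length trend removed. The class median in these settings was -0.08, -0.09 and -0.11. On TPM the groups separated in HIST1H1C, with -0.12 (SE 0.08, limma adjusted p = 0.365). Its recovered reads, scaled to library depth, overlapped between groups, and voom gave -0.07 (voom adjusted p = 0.475). Over the 4 H1 genes above 10 TPM, the median in NEAT1siRNA replicate 2 was -0.27 from the CsiRNA mean, against -0.04 and -0.11 in NEAT1siRNA replicates 1 and 3. On log2 CPM of recovered reads it was 0.01 in NEAT1siRNA replicates 1 and 3 and -0.32 in NEAT1siRNA replicate 2. Expression also moved with GC content in that library, with a Spearman rho of -0.73 between GC content and the deviation from the group mean across 10426 genes, against 0.68 in NEAT1siRNA replicate 1. In CsiRNA replicate 3 rho was 0.47. Tested H1 members had a median GC content of 56.4%, next to 56.4% for H2B, 56.3% for H4 and 58.6% for H2A and for H3. In NEAT1siRNA replicate 2 the medians from the CsiRNA mean were 0.02 for H2A, -0.05 for H2B, 0.07 for H3 and -0.08 for H4. The part of GC content in the H1 values of NEAT1siRNA replicate 2 was not tested.

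Of 14 tested H2A genes, 7 lay above and 7 below 0, and 0 passed limma's test or voom, with 1 at an unadjusted p under 0.05. HIST2H2AC, the H2A gene with the highest level (chr1:149886918-149887411, plus strand), had 921, 913 and 817 TPM with CsiRNA and 836, 874 and 850 TPM with NEAT1siRNA. The NEAT1siRNA libraries fell inside the CsiRNA range, and the log2 fold change was -0.05 (SE 0.08). The class ran from -0.20 in HIST3H2A, which had 110, 101 and 87.9 TPM with CsiRNA and 85.4, 93.5 and 79.6 TPM with NEAT1siRNA, to 0.11 in HIST1H2AJ. HIST1H2AJ had 77.4, 65.6 and 49.9 TPM with CsiRNA and 61.0, 72.3 and 71.8 TPM with NEAT1siRNA, and it shares 66.3% of its windows with HIST1H2AI, so that its level is uncertain. HIST1H2AI was at -0.09.

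Of 18 tested H2B genes, 1 was lower (HIST1H2BJ), 6 lay above 0 and 12 below it. HIST1H2BC had the highest level, with 1021, 1019 and 836 TPM with CsiRNA and 913, 866 and 868 TPM with NEAT1siRNA. The NEAT1siRNA libraries were again inside the CsiRNA range (log2 fold change -0.11, SE 0.08). HIST1H2BF lay on the other side of 0, with 587, 575 and 469 TPM with CsiRNA and 579, 560 and 606 TPM with NEAT1siRNA and a log2 fold change of 0.10 (SE 0.09). HIST1H2BB had 122, 121 and 95.2 TPM with CsiRNA and 92.9, 93.5 and 102 TPM with NEAT1siRNA, with a log2 fold change of -0.22 (SE 0.10, limma adjusted p = 0.14). As in HIST1H2BJ, its first and second CsiRNA libraries were high and CsiRNA replicate 3 lay among the NEAT1siRNA libraries. The H2B genes with long transcripts, HIST2H2BE, HIST2H2BF, HIST1H2BK and HIST1H2BD, were at -0.04, -0.07, -0.16 and -0.04, within the range of the other H2B genes. Of these, HIST2H2BF shares windows with HIST2H2BE and HIST2H2BA, and only 26.0% of its windows are unique. The share of unique windows is 42.8% in HIST1H2BK, 89.9% in HIST1H2BD and 92% in HIST2H2BE.

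Of 10 tested H3 genes, 5 lay above and 5 below 0, and 0 passed limma's test or voom, with 1 at an unadjusted p under 0.05. HIST1H3C (chr6:26045384-26045869, plus strand) had 930, 946 and 792 TPM with CsiRNA and 915, 937 and 822 TPM with NEAT1siRNA. The ranges coincided and the log2 fold change was 0.01 (SE 0.09), with a 95% confidence interval from -0.17 to 0.18. HIST1H3F showed the lowest value, -0.21 (SE 0.10, limma adjusted p = 0.17), with 365, 359 and 285 TPM with CsiRNA and 317, 303 and 249.8 TPM with NEAT1siRNA. HIST1H3I lay highest at 0.09, with 225, 214 and 183 TPM with CsiRNA and 212, 241 and 208 TPM with NEAT1siRNA.

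Among 11 tested H4 genes, 1 was lower (HIST1H4J), 2 lay above 0 and 9 below it. The class median was -0.17, lowest of the 5 classes, next to -0.14 for H1, -0.04 for H2B and H3 and -0.00 for H2A. The H4 genes include HIST1H4I and HIST1H4L, with means of 3.67 and 4 reads per library. They also include HIST1H4J and HIST1H4K, which share most of their windows. Without these genes, H4 values ran from -0.20 in HIST1H4C to 0.07 in HIST1H4B. The middle value was then -0.06, in HIST1H4H, which is above the H1 median of -0.14. With median centring, 8 of the 11 were below 0 and the class median was -0.11, whereas the medians of H2A, H2B and H3 turned positive, at 0.06, 0.01 and 0.02. With the GC content and length trend removed, the H4 median was -0.07 and H1 was lowest at -0.11. HIST1H4B, the H4 gene with the highest level (chr6:26026896-26027283, minus strand), had 923, 978 and 747 TPM with CsiRNA and 949.5, 924 and 884 TPM with NEAT1siRNA. These groups overlapped, with a log2 fold change of 0.07 (SE 0.09). HIST1H4C had 292, 304 and 209 TPM with CsiRNA and 240.5, 248 and 207 TPM with NEAT1siRNA, with -0.20 (SE 0.11, limma adjusted p = 0.257). HIST1H4I had the lowest value of all members, -0.51 (SE 0.21, limma adjusted p = 0.103), but on 2.79, 1.101 and 3.17 TPM with CsiRNA and 0.520, 2.51 and 1.13 TPM with NEAT1siRNA, a mean of 3.67 reads per library. It was called lower without CsiRNA replicate 2 (-0.82) and without NEAT1siRNA replicate 2 (-0.84), on 1 to 7 reads in each library. HIST1H4I also lies within the RefSeq span of HIST1H2BK on the opposite strand.

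By genomic cluster, the 2 lower members were both among the 49 tested of the HIST1 cluster on chromosome 6, where the median log2 fold change was -0.07. The 6 tested members of HIST2 had a median of -0.05, the 2 of HIST3 were HIST3H2A at -0.20 and HIST3H2BB at -0.04, and HIST4H4 was at -0.00.

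Many H2A and H2B genes are arranged head to head, and the space between both genes holds shared promoter elements. Promoters of 66 members (250 bases before to 50 after the RefSeq start) were searched on both strands for ATTTGCAT, the octamer bound by Oct-1, a known activator of H2B genes. It was found in 14 of 18 H2B, 11 of 16 H2A, 1 of 13 H3, 0 of 6 H1 and 0 of 13 H4 promoters, against 1.80% of 27305 promoters. CCAAT was found in all H1, H2A, H2B and H3 promoters and 3 of 13 H4 promoters, against 35.7% of all promoters. AAACACA, known as the H1 box, was found in 6 of 6 H1 promoters, against 5.76%. TATAAA was found in 66.7% of members' promoters, against 12%. The H4 promoter of HIST1H4J and the H2B promoter of HIST1H2BJ thus belong to classes that differ in these letters, and a match is a description, not a site of binding.

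The windows around the octamer are shown for 4 head-to-head pairs, since the expression of both genes can be read beside 1 shared element. Each is written on the strand of the H2B gene from GRCh38.p14, with capitals for the octamer on either strand.
HIST1H2BJ with HIST1H2AG, chr6:27132824-27132853, minus strand: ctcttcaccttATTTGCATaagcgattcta
HIST2H2BE with HIST2H2AC, chr1:149886710-149886739, minus strand: tcggagccctaATTTGCATaaggtggttat
HIST1H2BM with HIST1H2AJ, chr6:27814963-27814992, plus strand: ttctactcctaATTTGCATaataacattta
HIST1H2BO with HIST1H2AM, chr6:27893265-27893294, plus strand: gcttcctcttaATGCAAATgagctttctga

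HIST1H2BJ was lower at -0.32, whereas its partner HIST1H2AG was at -0.14 (SE 0.09, limma adjusted p = 0.345), with 517, 471 and 391.8 TPM with CsiRNA and 405, 441 and 398 TPM with NEAT1siRNA. CsiRNA replicates 1 and 2 were the highest libraries for both genes of this pair. HIST2H2BE and HIST2H2AC were at -0.04 and -0.05, and HIST1H2BM and HIST1H2AJ at 0.10 and 0.11. In the pair of HIST1H2BO and HIST1H2AM the values were -0.16 and 0.05, and GENCODE v44 has HIST1H2AM overlap HIST1H3J by 408 bases on the same strand. Of these 8 genes 1 was called, and no difference within a pair was tested.

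The genes that process these mRNAs, handle the proteins or replace them were described from lists. Some lists share genes (SLBP is in the processing and S-phase lists). Among all genes tested, limma called 4.99% higher and 8.98% lower, and voom called 23.3% in either direction. The shares of all genes at an unadjusted p under 0.05 were 9.22% higher and 18.2% lower. Of 38 tested genes of histone mRNA processing, 0 were higher and 2 were lower around a list median of -0.05 (log2 fold change), and voom called 0 higher and 4 lower. At an unadjusted p under 0.05, 0 were higher and 6 lower. UPF1, a helicase required for histone mRNA decay, had 10.98, 9.69 and 9.53 TPM with CsiRNA and 9.10, 7.76 and 6.84 TPM with NEAT1siRNA, and was lower by a log2 fold change of -0.32 (SE 0.10, limma adjusted p = 0.0369), without overlap. ZNF473, a zinc finger protein of the U7 processing machinery, had 6.35, 6.61 and 5.82 TPM with CsiRNA and 4.87, 5.42 and 4.51 TPM with NEAT1siRNA, without overlap, and was lower at -0.29 (SE 0.10, limma adjusted p = 0.0433). SLBP had 25.6, 25.6 and 21.3 TPM with CsiRNA and 24.3, 26.0 and 22.4 TPM with NEAT1siRNA. Its log2 fold change was 0.01, with a 95% confidence interval from -0.19 to 0.21, and its lowest library was CsiRNA replicate 3. NPAT had 13.3, 12.6 and 11.2 TPM with CsiRNA and 10.2, 12.4 and 10.2 TPM with NEAT1siRNA, with overlap and a log2 fold change of -0.17 (SE 0.10, limma adjusted p = 0.299).

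Of 42 tested S-phase genes, 1 was higher and 4 were lower, and their median was -0.09. Among all genes tested, 4.99% were higher and 8.98% lower. In the S-phase list, 1 gene was higher and 10 were lower at an unadjusted p under 0.05, against 9.22% and 18.2% of all genes. Voom called 1 higher and 5 lower in this list. RFC3, a subunit of the clamp loader of replication, had 31.8, 29.8 and 28.0 TPM with CsiRNA and 21.9, 25.6 and 22 TPM with NEAT1siRNA, without overlap, and was lower at -0.35 (SE 0.09, limma adjusted p = 0.0124). Another clamp loader subunit, RFC5, was lower at -0.32, and so was POLE, the catalytic subunit of DNA polymerase epsilon, at -0.31. E2F2, a transcription factor of the G1 to S transition, had 2.997, 2.26 and 2.40 TPM with CsiRNA and 4.43, 3.91 and 3.92 TPM with NEAT1siRNA, and was higher at 0.52 (SE 0.10, limma adjusted p = 9.05e-04), opposite in direction to the other genes called in this list. The fourth lower gene was ORC6, at -0.31.

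Of 25 tested histone chaperones, 0 were higher and 2 were lower by limma (2 and 3 at an unadjusted p under 0.05), with a median of -0.04, and voom called 3 higher and 3 lower with a median of 0.01. IPO4, an importin that carries H3 and H4 into the nucleus, had 25.6, 22.6 and 23.3 TPM with CsiRNA and 18.3, 18.4 and 16.4 TPM with NEAT1siRNA, without overlap, and was lower at -0.41 (SE 0.09, limma adjusted p = 0.00396). TONSL, which binds newly deposited histones, was lower at -0.32 (SE 0.11, limma adjusted p = 0.0443), although its groups overlapped. Of 18 tested polyadenylation factors, 0 were called by limma and 0 by voom, 2 were lower at an unadjusted p under 0.05, and the median was -0.08.

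The replication-independent variants gave 1 gene past the threshold among 9 tested, and it was higher, as were 4.99% of all genes tested. Voom called 2 variants higher and 0 lower. H1FX, a polyadenylated linker histone variant, had 40.3, 38.9 and 38.9 TPM with CsiRNA and 55.9, 51.0 and 47.5 TPM with NEAT1siRNA. All NEAT1siRNA libraries were above all CsiRNA libraries, and the log2 fold change was 0.38 (SE 0.09, limma adjusted p = 0.00596), whereas the 5 tested H1 genes of the clusters lay below 0. The difference between H1FX and those genes was not tested. H2AFZ, the gene of the variant H2A.Z, had 443, 441 and 358 TPM with CsiRNA and 373, 403 and 364 TPM with NEAT1siRNA, with overlap and -0.12 (SE 0.09). H3F3B, a gene of the variant H3.3, had 57.4, 54.2 and 48.2 TPM with CsiRNA and 50.5, 66.2 and 49.0 TPM with NEAT1siRNA, with overlap and 0.04 (SE 0.11). H3F3A, the other H3.3 gene, was listed at 0 in all 6 libraries. Whether its reads could be placed uniquely was not examined, so this value does not show that the gene was silent.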

How the data were processed

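The authors prepared stranded mRNA libraries, aligned reads to GRCh38 with STAR and compared groups with DESeq2. They deposited TPM per gene and library, and a comparison table whose mean normalized count (a signal averaged over libraries) was used here. Its columns of log2 fold changes, standard errors on the log2 scale, test scores, p-values and adjusted p-values, deposited by the authors, hold their own findings and were not used. The versions of STAR and DESeq2 are not given in the sources used here.

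TPM were analysed as log2(TPM + 1) for the 10721 genes whose TPM averaged at least 1, with lmFit and eBayes (trend) of limma 3.58.1 in R 4.3.3, Benjamini-Hochberg adjustment over all genes and a threshold of 0.05. Fold changes on this scale understate changes of low genes. A permutation test of 3 against 3 libraries cannot go below p = 0.1 and was not used. TPM had been made with a transcript length that differed between libraries by up to about 2 bases of offset. Modelling this offset with the mean normalized counts gave reads within 0.05 of a whole number for 99.8% of all values and 95.4% of members' values. For members, the offset changed the difference between groups by 0.00 to 0.03 on the log2 scale. Intervals and depths cover these libraries only. The procedure was tested on simulated data, where the share of false calls was above the nominal rate of the threshold.

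The members, gene lists and tests were chosen with earlier results of these data known. Named are tested members, those past the threshold, the leading member of each class, up to 4 genes past the threshold of each companion list, and SLBP, NPAT, H2AFZ, H3F3A and H3F3B. ORC6 was named after its value was seen. Sequences come from GENCODE v44 transcripts and RefSeq promoters of GRCh38.p14. Settings varied were the pseudocount, the filter, the scaling, the trend, the replicate block, voom on recovered reads with trimmed-mean factors, removal of a GC content and length trend, and each library left out. Figures used matplotlib 3.10.9 in Python 3.11.15.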

Additional observations from a re-analysis of the deposited data

How the results depend on the processing

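NEAT1 was lower in all 16 alternatives, from -1.63 to -1.16 on the log2 scale. The number of all genes changed was 1498. It was 505 with no filter on TPM, 2495 with voom on recovered reads, 3469 with a trend on GC content and length removed and 3390 with this and the replicate block, and it ran from 784 to 2076 with single libraries left out. The split of 535 higher and 963 lower genes became 1082 and 1109 with quantile normalization and 1158 and 954 with median centring. The number of histone genes changed was 2. It was 0 with no filter, 0 with a mean TPM of at least 0.2, 1 with median centring, 1 with eBayes without trend, 1 with voom, 4 with the GC content and length trend removed (3 higher, 1 lower), 6 with this and the replicate block, and ran from 0 to 14 with libraries left out. HIST1H4J was called in 11 of 16 alternatives and HIST1H2BJ in 7 of 16, with the same direction in all of them. The median over histone genes was -0.06, from -0.16 to 0.02, where the positive value came with the GC content and length trend removed. The median level of the members varied between libraries with a pooled SD of 0.13. That is a different measure from these shifts, and their cause was not tested.

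Deviations of same-numbered libraries from their group means had correlations of -0.03, 0.25 and -0.11 across 10721 genes. Replicate 2 correlated best with its own number, but not every library did. The labels state no pairing, and these correlations cannot settle whether the samples were prepared in pairs. With the replicate block, 3 histone genes were lower (HIST1H2BJ, HIST1H4J and HIST1H3F), and 1640 of all genes changed. Over 71 named genes, 1136 values were recomputed. Of these 1058 kept their side of the threshold, 46 calls were lost, 32 were gained and 0 calls changed direction. Of the genes beside the members, H1FX and IPO4 were called in 16 of 16 alternatives, E2F2 in 15, RFC3 in 13, UPF1 and POLE in 11, and ZNF473, TONSL and RFC5 in 10. HIST1H4I, HIST1H4L, HIST1H2BE and HIST1H2AD averaged fewer than 10 reads per library, which limits the precision of their values.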
